A study of Saccharomyces cerevisiae with 4 samples.

Results

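The expression profile of a Saccharomyces cerevisiae strain labelled as a deletion of MET31 (YPL038W, chromosome XVI), hybridised with wild type to a 2-colour array, was described across the genome. Its members are all open reading frames (ORFs) with a value other than 0 in that strain's column, which were 5893 of the 6260 ORFs in the table. The other 367 are listed at exactly 0 and were treated as not measured. Per the labels, colonies were picked from rich-medium plates with G418 and grown in YNB, a defined minimal medium, at 30 °C to an optical density of 0.8 to 1.0. The reference channel is labelled "wt". The strain background is not given in the sources used here, nor is it stated whether the wild type came from G418 plates. For comparison, the sample labelled as a met32 deletion carries the same reference label, and the met28 and cbf1 deletions were set against a wild type labelled "wt+met". At least 2 biological samples per strain are stated, but each strain has 1 column of values, so n = 1. No difference below has a replicate check, standard error or p-value.

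Yeast cells take up sulfate, reduce it to sulfide and build it into homocysteine, methionine and cysteine, or import sulfur amino acids through permeases. The activator Met4 drives genes of both routes. It has no DNA-binding activity of its own on these promoters and is brought to them by Cbf1, with the cofactor Met28, and by the paralogous zinc-finger proteins Met31 and Met32. Because Met31 has a close paralog, its loss leaves Met32 in place.

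Values are given in the deposited units, which are signed, have at most 3 decimals and were taken to be log ratios of unknown base. Deletion strain over wild type is the likely direction, since the title and first channel name the deletion and MET31 itself was among the lowest values. The labels give each dye as either Cy3 or Cy5 and do not settle it. With the opposite direction, every "high" and "low" below would change places. Measured values had a median of -0.002, quartiles of -0.035 and 0.035 and a robust SD (scaled median absolute deviation) of 0.0519. With no test possible, genes are called by size. The highest tail is the top 2.5% of the measured values (0.156 and above, 148 ORFs, 2.51%) and the lowest tail is the bottom 2.5% (-0.122 and below, 150 ORFs, 2.55%). The 10 values just outside the lowest tail ran from -0.121 to -0.119 and those just inside from -0.123 to -0.122. At the high side they ran from 0.153 to 0.155 outside and from 0.156 to 0.161 inside, so neither threshold marks a gap. Under a rule of more than 3 robust SDs from the median, 157 ORFs lay above (2.66%) and 68 below (1.15%), so the high side reached farther out.

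MET31 lay at -0.320, at rank 5 from the bottom of the 5893 values. This is 2.09-fold below the reference channel if the values are log10 ratios and 1.25-fold if they are log2 ratios. SAM3 and NFT1, next to MET31 in rank, were at similar values, -0.324 and -0.317. The deleted genes MET28 and CBF1 lay lower on their own arrays, at -1.294 and -0.995. On the other arrays MET31 was at 0.598 (met28) and 0.032 (met32) and was listed at 0 on cbf1. The genes around it stayed outside the tails: of the 5 annotated genes on either side, YPL038W-A is not in the table, MRX11, a mitochondrial protein gene, was at -0.105, and the others lay between -0.044 (YPL039W) and 0.045 (SSN3). The next gene, EGD1, was at -0.027. Most other regulators of the Met4 system lay close to the array median. The paralog MET32 was at 0.027, MET28 at -0.026 and CBF1 at -0.021. MET4 is listed at 0. MET30, the F-box subunit gene of the ubiquitin ligase that restrains Met4, was at 0.012. The ligase scaffold gene CDC53 lay farther out, at 0.144, and its conjugating enzyme gene CDC34 was at 0.061, neither in a tail.

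**Figure D1:**
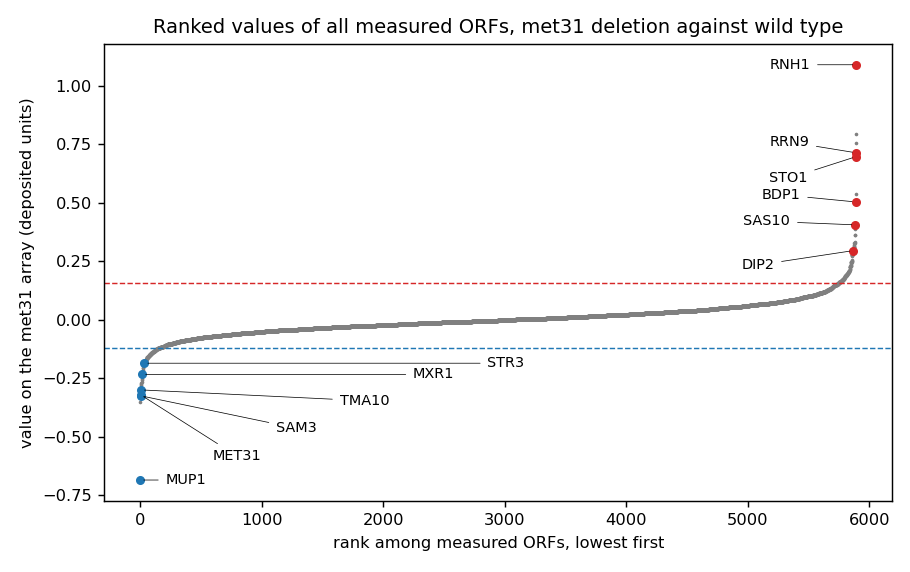
All 5893 measured ORFs of the met31 array by rank (x axis, lowest first) and value (y axis, deposited units). Dashed lines mark the tail thresholds at -0.122 and 0.156. MUP1 stands alone at the bottom at -0.684, and RNH1 at the top at 1.09.

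Genes that bring sulfur amino acids into the cell were among the lowest values of the profile. MUP1, the high-affinity methionine permease gene, was the lowest of all ORFs at -0.684, which is 0.333 below the next value (YPL080C, -0.351). On a log10 reading this is 4.83-fold below wild type and on a log2 reading 1.61-fold. SAM3, the S-adenosylmethionine permease gene, was at rank 4 from the bottom with -0.324. MMP1, the S-methylmethionine permease gene, was at -0.146 and MUP3, a low-affinity methionine permease gene, at -0.142. These are 4 of the 7 measured members of the sulfur amino acid transport list in the lowest tail, against 2.55% of all measured ORFs. The other members were not low: the general permease gene AGP1 was at -0.019, the cysteine transporter gene YCT1 at 0.104 and AGP3 at 0.106. The list median was -0.142, against -0.002 for all ORFs.

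Outside transport, 2 of the 51 measured genes of the other sulfur lists were in the lowest tail (3.92%), a share near the 2.55% of all measured ORFs, and so was 1 of 25 oxidative stress and thiol redox genes (4%). The thiol redox gene was MXR1, which encodes methionine sulfoxide reductase, at -0.233. STR3, the cystathionine beta-lyase gene that leads from cysteine toward methionine, was at -0.185. ADI1, a dioxygenase gene of the methionine salvage pathway, was at -0.154. MET17, the sulfhydrylase gene that joins sulfide to a carbon chain, was at -0.115, just outside the lowest tail. Of the other thiol redox genes, MXR2, the second methionine sulfoxide reductase gene, was at -0.082 and is not in a tail.

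The pathway that reduces sulfate had none of its 9 measured genes in a tail. Of these, 6 were below 0, against 51.7% of all measured ORFs, and their median was -0.027. The glycogen and trehalose list, described below, had a similar median of -0.022. The sulfate permease gene SUL1 was highest at 0.124, while its partner SUL2 was at -0.018. In pathway order, the ATP sulfurylase gene MET3 was at -0.028, MET14 is listed at 0, the reductase gene MET16 was at 0.066, and the sulfite reductase subunit genes MET5 and MET10 were at -0.059 and 0.041. MET22, the phosphatase gene, was at -0.039, and the siroheme genes MET1 and MET8 were at -0.080 and -0.027. These values run in both directions along the pathway.

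Synthesis of methionine from aspartate and homocysteine likewise had no gene in a tail. Its 13 measured genes had a median of -0.003 and ran from MET17 (-0.115) to MET7 (0.078), a folate polyglutamation gene. The methionine synthase gene MET6 was at -0.015, and the S-adenosylmethionine synthetase genes SAM1 and SAM2 were at -0.046 and -0.003. In the cysteine and glutathione list STR3 was the only one of 7 genes in a tail. STR2, the cystathionine gamma-synthase gene of the step before STR3, was at 0.118, CYS3 at -0.018, CYS4 at -0.047 and the glutathione synthesis gene GSH1 at 0.083. Of 11 genes that serve other sulfur sources or spare sulfur, SEO1, a putative permease gene, was at 0.362 in the highest tail, and the others ran from -0.069 (DUG2) to 0.112 (SAM4). JLP1, BDS1 and PDC6 were at 0.022, 0.029 and 0.061. Over all 6 sulfur lists, 58 genes were measured, of which 6 were in the lowest tail (10.3%, against 2.55% of all ORFs) and 1 in the highest (1.72%, against 2.51%). Of the 6 low genes, 4 belong to the transport list. The common median of the 58 was -0.003, close to the -0.002 of all measured ORFs.

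Most of the low sulfur genes were high in the strains set against wild type with methionine. MUP1 was at 0.933 on met28 and 0.929 on cbf1, and at -0.042 on met32. STR3 was at 0.857, 0.790 and 0.164 on these arrays, and MMP1 at 0.919, 0.699 and 0.046. Of the 150 ORFs in the lowest tail of met31, 116 were measured on met28, and 16 of them (13.8%) were in its highest tail, against 2.15% of all 5153 ORFs measured on both. These 16 are 14.4% of the 111 ORFs of that highest tail. MET31, the gene labelled as deleted on its own array, is among the 16. On cbf1, 7 of 112 (6.25%) were in the highest tail, against 2.52% of 5308, and they are 5.22% of its 134 ORFs. Overlaps in the same direction were few on the low side. Of the lowest tail of met31, 5 of 116 (4.31%) were in the lowest tail of met28, against 2.52% of all ORFs. On cbf1 there were 4 of 112 (3.57%), against 2.49%. Both are small counts, with shares near those of all ORFs. Of the highest tail of met31, 10 of 92 (10.9%) were in the highest tail of cbf1, against 2.52%, and 3.26% in its lowest, against 2.49%. On met28, 6.38% were in the highest tail, against 2.15%, and 10.6% in the lowest, against 2.52%. The ORFs low on met31 and high on both others were MUP1, SAM3, MMP1, STR3, MXR1, ADI1 and TMA10, 7 in all. MXR1 is on the oxidative stress and thiol redox list, TMA10 is on the general stress list, and the others are on the sulfur lists. SAM3 was at 0.357 and 0.281 on met28 and cbf1, MXR1 at 0.397 and 0.388, ADI1 at 0.547 and 0.371, and TMA10 at 0.317 and 0.433. On the array labelled met32, which has the same reference label as met31, none of these 7 was in the lowest tail. MET32 itself was at 0.012 there, so that array does not show its deletion. The reference label changes together with the strain, so effects of the 2 cannot be told apart. Among the sulfate genes, SUL1, SUL2 and MET16 were at -0.745, -0.801 and -0.576 on met28 and at -1.119, -0.644 and -0.711 on cbf1, in the lowest tail of both, and were outside the tails on met31.

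**Figure D2:**
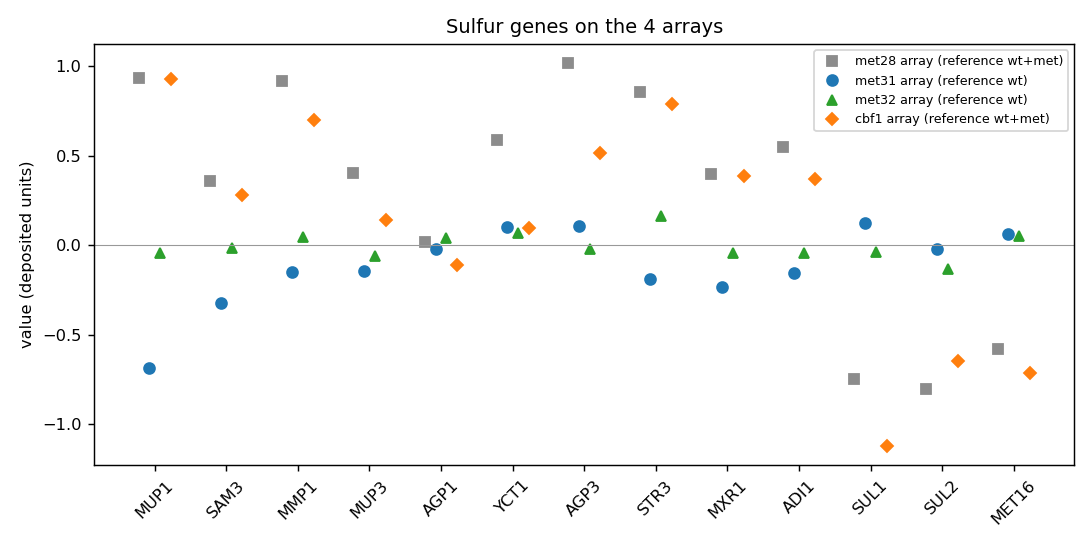
Values (y axis, deposited units) of 13 genes on the 4 arrays, 1 point per array, with a value listed at 0 left out. All are on the sulfur lists except MXR1, which is on the thiol redox list. MUP1, SAM3, MMP1, MUP3, STR3, MXR1 and ADI1 lie below 0 on met31 and above 0 on both arrays with the wt+met reference, and SUL1, SUL2 and MET16 are in the lowest tail on those 2 arrays and in neither tail on met31 and met32.

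The high side of the profile held many genes that make ribosomes. Ribosomal RNA is transcribed by RNA polymerase I, then cleaved, modified and folded in the nucleolus with the help of large assembly factors. The 5 lists of this group cover RNA polymerases I and III, assembly of both subunits and RNA processing by the exosome. Together they hold 167 measured genes, of which 26 (15.6%) were in the highest tail, against 2.51% of all ORFs, and 1 was in the lowest. Of these genes 147 were above 0 (88.0%), against 48.3% of all measured ORFs. The 26 make up 17.6% of the highest tail, while the lists hold 167 of the 5893 measured ORFs. By list, 12 were of large subunit assembly and 10 of the small subunit processome. The exosome and exonuclease list held 2, and the RNA polymerase I and III lists 1 each.

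Factors of the large ribosomal subunit had the highest list median, 0.099, with quartiles of 0.051 and 0.149. Of 55 measured, 51 were above 0 (92.7%, against 48.3% of all measured ORFs). The highest tail held 12 (21.8%, against 2.51%) and the lowest 1 (1.82%, against 2.55%). NOG1 and NOG2, genes of assembly GTPases, were at 0.211 and 0.198. RPF2 and RRS1, whose products bring the 5S particle into the precursor, were at 0.210 and 0.184. MAK16 was at 0.200, NOC2 at 0.194, SSF1 at 0.183, NOP4 at 0.176 and EBP2 at 0.166. The helicase genes DBP7 and DRS1 were at 0.172 and 0.161, and RRP1 was at 0.156. URB1, a nucleolar protein gene of the same pathway, was at -0.231 and stood apart from the list. URB1 is listed at 0 on met28. URB2, on the same list, was at 0.105 on met31.

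The small subunit processome, the particle that cleaves the precursor of 18S rRNA, had a median of 0.077 and quartiles of 0.0373 and 0.131. Of 54 genes, 50 were above 0 (92.6%, against 48.3% of all measured ORFs). The highest tail held 10 (18.5%, against 2.51%) and the lowest 0. SAS10 was highest at 0.406, followed by DIP2 at 0.296, a gene of the UtpB complex, and BFR2 at 0.206. NOP56, a core gene of box C/D snoRNPs, was at 0.187, UTP5 and UTP4 of the UtpA complex at 0.185 and 0.166, and the helicase gene DBP8 at 0.182. IMP3 of the Mpp10 complex was at 0.177, UTP25 at 0.175 and RRP5, which acts for both subunits, at 0.166.

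Within these lists, subgroups chosen after the values were seen differed in level. The 7 genes of UtpA were all above 0, from 0.020 (UTP8) to 0.185, with a median of 0.093. The 6 of UtpB were all above 0, with a median of 0.064. The 15 helicases of ribosome assembly ran from 0.011 (DHR2) to 0.182 with a median of 0.081, again all above 0. The snoRNP core proteins, which modify rRNA, were nearer to the array median. The 4 box C/D genes had a median of 0.018, with NOP1 at -0.001 and SNU13 at -0.006 beside NOP56. The 4 box H/ACA genes had a median of 0.017, with the pseudouridine synthase gene CBF5 at 0.061 and NHP2 at -0.061. The 10 genes of the exosome core had a median of 0.032 and none in a tail, with the catalytic subunit gene DIS3 at 0.104.

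Transcription factors and polymerases for rRNA and tRNA were also mostly above 0, with 1 extreme gene each. Over all measured ORFs, 48.3% were above 0 and 2.51% in the highest tail. RNA polymerase I and its factors had 14 of 16 genes above 0 (87.5%), 1 in the highest tail (6.25%) and a median of 0.032. RRN9, which encodes a subunit of the upstream activating factor, was at 0.714. UAF30 of the same factor was at 0.132, and the largest polymerase subunit gene RPA190 at 0.129. For RNA polymerase III, 13 of 19 genes were above 0 (68.4%) and 1 was in the highest tail (5.26%), with a median of 0.026. BDP1 of TFIIIB was at 0.504 and the next highest, RPC17, at 0.106. In the exosome and exonuclease list, NGL3 was at 0.538, REX4 at 0.394 and the exosome helicase gene MTR4 at 0.154, just outside the tail. The 12 RNA polymerase II subunit genes had a median of 0.022 and none in a tail.

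Genes of the ribosome itself were close to 0. The 134 measured cytosolic ribosomal protein genes had a median of 0.0115, ran from -0.110 (RPS8B) to 0.081 (RPL2B), and had 0 members in either tail. Values within 0.05 of 0 were found for 85.8% of them, against 64.3% of all measured ORFs. Many are near-identical pairs that the array cannot be assumed to separate. Mitochondrial ribosomal protein genes had a median of 0.0025 over 64, with RSM10 at 0.158 as the only member in a tail. Among 18 cytosolic tRNA synthetase genes the leucyl enzyme gene CDC60 was at 0.293 and the next, MES1, at 0.073. SUI3, a subunit gene of initiation factor eIF2, was at 0.160 among 32 translation factor genes with a median of 0.018. The tRNA modification list had a median of 0.037, with DUS3 at 0.135 and TRM3 at -0.125, the latter in the lowest tail.

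**Figure D3:**
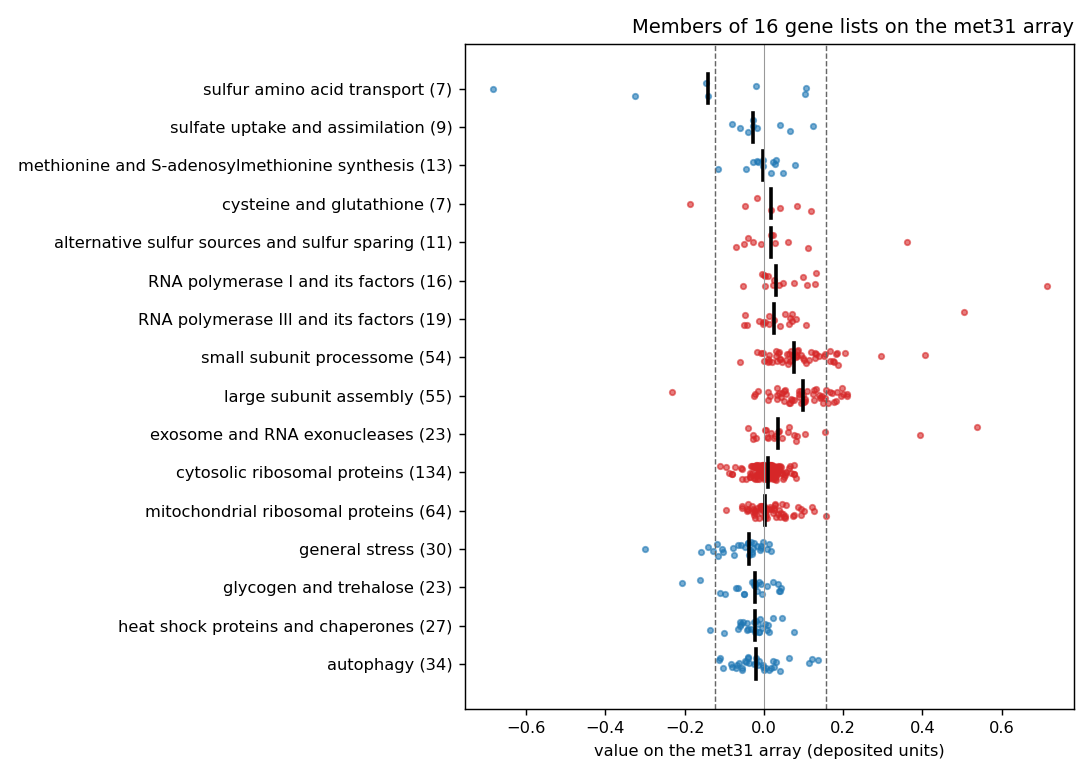
Values (x axis, deposited units) of the measured members of 16 gene lists on the met31 array. Each point is a gene, black bars are list medians, dashed lines are the tail thresholds, and the number measured follows each name. Both subunit assembly lists lie to the right of 0 (medians 0.077 and 0.099), cytosolic ribosomal proteins are narrow around 0.0115, and the stress list lies to the left (median -0.0385).

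Stress and storage genes were on the low side. In yeast the factors Msn2 and Msn4 raise a broad set of such genes under many kinds of stress. Of 30 measured general stress genes, 27 were below 0, against 51.7% of all measured ORFs. The lowest tail held 4 of them (13.3%, against 2.55% of all measured ORFs). None was in the highest tail, and the list median was -0.0385. TMA10 was at -0.299, the aldehyde dehydrogenase gene ALD3 at -0.158, RTC3 at -0.141 and the cytosolic catalase gene CTT1 at -0.128. GAD1 and ALD2 followed at -0.119 and -0.115. The small heat shock gene HSP12, a common stress marker, was at -0.003. The list median lay closer to 0 than 1 robust SD of the array.

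Of 23 genes of glycogen and trehalose metabolism 17 were below 0, with a median of -0.022. GAC1, a regulatory subunit gene of the phosphatase that activates glycogen synthase, was at -0.207 and TSL1, a trehalose synthase subunit gene, at -0.160. Both were in the lowest tail (8.70% of the 23, against 2.55% of all measured ORFs). The debranching enzyme gene GDB1 was at -0.110. Glycogen synthase genes went both ways, with GSY2 at -0.065 and GSY1 at 0.041. Of 27 heat shock protein and chaperone genes 20 were below 0, with the heat shock gene HSP30 at -0.135 in the lowest tail. HSP42 was at -0.101 and HSP26 at -0.066. Of the essential chaperone genes, SIS1 was at -0.059, HSP10 at -0.042, HSP60 at -0.004 and KAR2 at 0.013. Together, the 3 lists held 80 measured genes, of which 64 (80%) were below 0, against 51.7% of all ORFs. In the lowest tail were 7 (8.75%, against 2.55%) and in the highest 0. For the heat shock protein and chaperone list alone the 1 low gene, HSP30, is 3.70%.

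**Figure D4:**
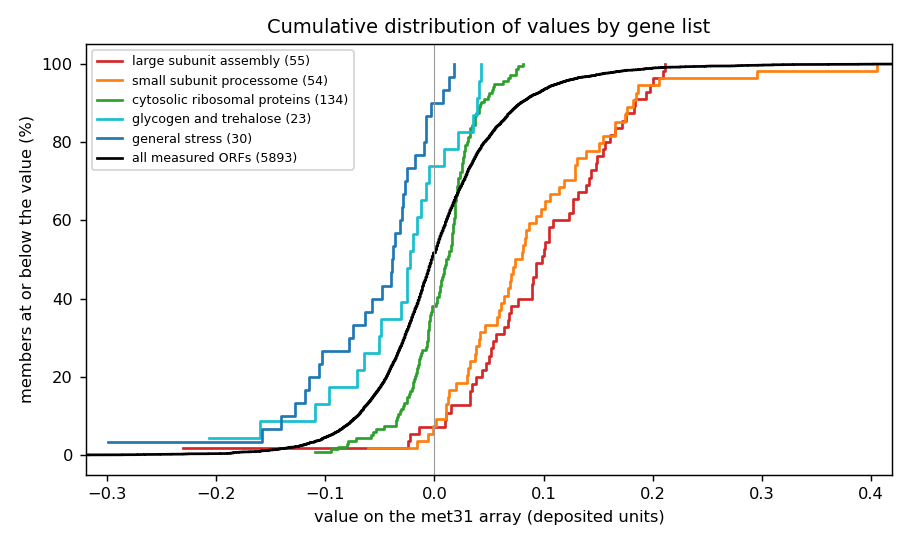
Share of members at or below each value (y axis, percent) against the value (x axis, deposited units) for 5 lists and all 5893 measured ORFs. The assembly curves lie to the right of the curve for all ORFs over most of the range, the general stress curve to its left, and the ribosomal protein curve is steeper than that for all ORFs.

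The same lists were placed differently on the other arrays. Large subunit assembly had a median of -0.085 on met28, -0.080 on cbf1 and -0.007 on met32. The small subunit processome had -0.074, -0.0765 and 0.014. On cbf1 the median of all measured ORFs was itself -0.034, with a robust SD of 0.110, and cytosolic ribosomal protein genes had a median of -0.075, so low medians there were not limited to assembly genes. Of the 26 ribosome and RNA processing genes in the highest tail of met31, 20 were measured on met28, and 17 of these were below 0 there, against 49.3% of all ORFs. On cbf1, 17 of 22 were below 0, against 62.9% of all ORFs. EBP2, NOC2 and RPF2 were in the lowest tail of met28, at -0.212, -0.240 and -0.205. General stress genes had medians of 0.026 on met28, 0.035 on cbf1 and -0.0215 on met32.

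Other nutrient and metabolic lists had few genes in a tail and no direction in common. Of the 50 lists, 21 had no member in either tail. Among these 21, the seripauperin and anaerobic mannoprotein list had 24 of 29 genes below 0, against 51.7% of all measured ORFs. Its median was -0.022, and 0.032 without near-identical copies. In the phosphate regulon PHM6 and the phosphate transporter gene PHO84 were in the highest tail at 0.334 and 0.243. They are 14.3% of its 14 measured genes, against 2.51% of all measured ORFs, while the list median was -0.014. The proline permease gene PUT4 was at -0.252 and the branched-chain amino acid permease gene BAP2 at 0.216. DAL80, a repressor gene of nitrogen catabolism, was at -0.136, and the list of 19 such genes had a median of -0.036 with 6 genes above 0. PRO1, the first gene of proline synthesis, was at 0.174, and no other gene of the amino acid synthesis lists outside sulfur was in a tail. Serine, glycine and one-carbon genes had 12 of 16 above 0 (75%, against 48.3% of all measured ORFs) and none in a tail. Their median was 0.031, and the highest were MTD1 at 0.059 and GCV1 at 0.058.

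Carbon and energy genes were mostly near 0. None of 17 glycolysis and fermentation genes was in a tail, and they had a median of 0.004 and ran from PGK1 (-0.064) to PDC5 (0.056). In the respiratory list ATP4, an ATP synthase stalk subunit gene, was at 0.287 and the median over 39 genes was -0.005. The mitochondrial citrate synthase gene CIT3 was at 0.281 and the gluconeogenic gene FBP1 at -0.128. HXT2, a glucose transporter gene, was at -0.148 and HXT16 at 0.163, but hexose transporters are similar in sequence. THI13 at -0.151 and the ferric reductase-like gene FRE5 at -0.143 were the tail members of the thiamine and metal lists, and THI13 has near-identical copies. Ergosterol, histone, proteasome, vacuolar ATPase, mating, cell separation and autophagy lists had none. PDS1, the securin gene, was at -0.268, the only tail member among 23 cell cycle genes. SPO23 and SPO13 were at -0.255 and -0.166 in the lowest tail, 6.90% of 29 meiosis and sporulation genes, against 2.55% of all measured ORFs. None of 8 strain marker genes was in a tail. They ran from MET17, which is also on a sulfur list, at -0.115 to URA3 at 0.070, with LEU2 at 0.027.

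Of the 20 highest genes with a symbol, 7 were on a list, and of the 20 lowest, 10 were. The lists hold 1169 of the 5893 measured ORFs. The genes named here are outside the lists, except RRN9. RNH1, which encodes ribonuclease H1, was highest at 1.09, followed by the ORFs YJL028W (0.796) and YGR265W (0.757), RRN9 and STO1 (0.697), the gene of the large cap-binding subunit. GNT1, a GlcNAc transferase gene, was at 0.402 and TMS1 at 0.388. Farther down were FYV12 at 0.361, PSY2, a phosphatase subunit gene, at 0.329, the nonsense-mediated decay gene NMD4 at 0.328, and EDS1 at 0.320. RCI50 and ICE2 were both at 0.311, the eisosome gene SEG2 was at 0.310, RQC1 of ribosome quality control at 0.309 and the mitochondrial ADP/ATP carrier gene AAC3 at 0.298. On the low side were NFT1, a putative ABC transporter gene, at -0.317, the sorbitol dehydrogenase gene SOR1 at -0.277, the Puf-family gene JSN1 at -0.272 and LAG2 at -0.266. ROY1 was at -0.244, ICL2, a mitochondrial lyase gene, at -0.226, CDC123, an eIF2 assembly gene, at -0.214, the SNARE gene GOS1 at -0.205, the phospholipase gene NTE1 at -0.196 and the CAAX protease gene RCE1 at -0.190.

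Extreme values coincided with ORFs that other arrays listed at 0. Of all 5893 measured ORFs, 20.9% were at 0 on at least 1 other array, against 52.0% of the highest tail and 36.7% of the lowest. Among the 20 highest genes with a symbol 14 were so listed, and among the 20 lowest 7. RNH1 was at 0 on met28 and RRN9, STO1 and NGL3 were at 0 on met28 and cbf1. SAS10 was at 0 on all other arrays. What part this has in the tails was not tested. MUP1, SAM3, MMP1, MUP3, STR3, MXR1, ADI1 and TMA10 were measured on all 4 arrays. Over the 4661 ORFs measured on all 4, with tails set anew, 30 of 118 ORFs in the highest tail (25.4%) belonged to the ribosome and RNA processing lists, which hold 2.90% of the 4661. Of 121 in the lowest, 8 (6.61%) belonged to the stress, storage and chaperone lists, which hold 1.52%.

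**Figure D5:**
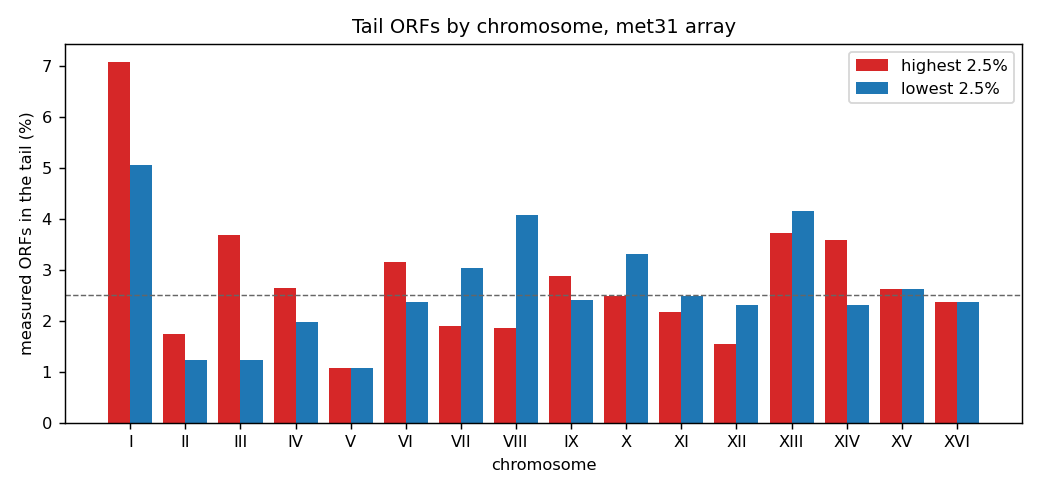
Measured ORFs in each tail of the met31 array (y axis, percent, bars from 0) by chromosome. The dashed line is at 2.5%. Chromosome I has the tallest bars, at 7.07% in the highest and 5.05% in the lowest tail.

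The share of ORFs in a tail differed between chromosomes, as read from the ORF names. On chromosome I, 12 of 99 measured ORFs (12.1%) were in a tail, against 5.06% of all measured ORFs. High there were SEO1, the histone methylation subunit gene SWD1 (0.200) and MAK16. Low were FUN19 (-0.187), the vacuolar sorting gene VPS8 (-0.152), the flippase gene DRS2 (-0.144) and the spindle pole gene SPC72 (-0.132). Another array gave 0 for 11 of these 12 ORFs. On met32 alone, 96.0% of the measured chromosome I ORFs were at 0. Chromosome XIII had 7.86% in a tail and held 4 of the 9 ORFs above 0.4, namely RNH1, RRN9, STO1 and NGL3. Chromosome medians lay between -0.011 and 0.005, so no whole chromosome was shifted by as much as the robust SD.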

How the data were processed

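The deposited table holds 1 score per ORF and strain, a signed value that the authors made from a 2-colour hybridisation. Per the labels' protocols, RNA was extracted by hot phenol, and cDNA was labelled directly with Cy3 or Cy5. The log base, centring, background correction, dye swaps, averaging and intensities are unknown here, so depth is unknown and the number of arrays limits precision. Values were used as deposited, with an exact 0 as not measured. Names came from the RefSeq gene table of assembly R64 (5774 of 6260 ORFs matched), used for names and gene order only. The 50 lists, the members and the rule for named genes were chosen with earlier results of these data known. The rule took the Met4 regulators, the 20 highest and 20 lowest genes with a symbol, list members in a tail and up to 4 others of largest size per list, MET31's neighbours and the tail genes of chromosome I. YPL080C, YJL028W, YGR265W, some near-median list members and the 9 subgroups were chosen after values were seen. Of the list symbols 4 were not found. Tail and list counts were tested on simulated data. The planned promoter motif description was not run, because no sequences were used here. Python 3.11.15, pandas 2.3.3, numpy 2.4.6 and matplotlib 3.10.9 were used.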

Additional observations from a re-analysis of the deposited data

Results flagged for a closer look

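Genes named here that lay in opposite tails on the met31 and met32 arrays, which share a reference label, were SOR1 (-0.277 on met31 and 0.202 on met32), ROY1 (-0.244 and 0.189), STR3 (-0.185 and 0.164) and FRE5 (-0.143 and 0.180). Each array is 1 column, so the difference was not tested. MET32 was at 0.012 on the array labelled with its deletion, which shows no loss of the gene in either direction.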

How the results depend on the processing

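With 1 column, no replicate could be left out. No paired analysis was possible because each strain has 1 column. Medians of the 7 leading lists moved by less than the robust SD and kept their sign under all 4 alternatives run. Over all lists, 2 of 198 alternative medians moved further: the mean of the RNA polymerase I list (0.0848, with RRN9) and the seripauperin and anaerobic mannoprotein list without near-identical copies (0.032, from -0.022). Other thresholds changed counts. With tails of 1%, there were 60 high and 63 low ORFs, 2 transport, 2 processome, 2 large subunit and 1 general stress members, and 2 genes (STR3 and MUP1) low on met31 and high on both met28 and cbf1. With 5% there were 297 and 299 ORFs, 17 processome, 22 large subunit, 8 stress and 4 glycogen and trehalose members. More than 3 robust SDs from the median left 68 low ORFs, 2 transport and 2 stress members, since the low side is narrower (68 below and 157 above). Over ORFs measured on all 4 arrays, there was 1 glycogen and trehalose member in the lowest tail (GAC1 is at 0 on cbf1). MET31 was at rank 5 from the bottom also among RefSeq genes, and is not measured on all 4 arrays. The overlap with met28 and cbf1 at other thresholds was chosen after seeing the data. Not run were the promoter window, for lack of sequences, and any background correction or normalization, for lack of intensities.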

Other observations

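The 5 outermost ORFs by name on each chromosome arm gave 139 measured values with a median of -0.011, against -0.002 for all measured ORFs. Of these values 58.3% were below 0, against 51.7% of all measured ORFs. All 7 subtelomeric Y' helicase genes, a near-identical family, lay below 0 on met31, from -0.068 (YRF1-2) to -0.005 (YRF1-3). They were at a median of 0.042 on met28, 0.017 on cbf1 and -0.312 on met32. Across 56 pairs of ribosomal protein genes with both copies measured, the copies differed by a median of 0.0235 and at most by 0.111. Of the 148 ORFs in the highest tail, 14.2% were not in the RefSeq table, as were 11.3% of the lowest tail and 6.13% of all measured ORFs.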
